A study of Medicago sativa with 86 samples.

Results

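The 80 gene identifiers described here were those whose messenger RNA in alfalfa (Medicago sativa) leaves stood lowest in ineffective Agate relative to every other line of the study. They were chosen from the measured levels themselves. For each identifier a level was computed in each library as log2(CPM + 1), where CPM is the count divided by the total of the library and scaled to a common total. The levels were averaged over the libraries of a line, with its 6 combinations of nitrate and CO2 weighted equally. The score of an identifier was the lowest of the other 3 line means minus the mean of ineffective Agate, and the 80 highest scores were taken. Scores were computed for the 16039 identifiers with a mean of at least 2 CPM, of 49095 in the table. Every difference between lines reported below was therefore used in the choice, and such differences are given as a description, without a test. Responses to CO2 and nitrate within a line were not used in the choice, because the line means weight all treatments equally, and these were tested.

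RNA was sequenced from leaves of the alfalfa cultivars Agate and Saranac, each as a class with ineffective and a class with effective nitrogen fixation, which gives 4 lines. All plants, of every line, had been inoculated with rhizobium and received 6, 10 or 16 mM KNO3 once a week, in growth chambers held at 600 or 420 ppm CO2. Ineffective Agate had 21 libraries, effective Agate 22, ineffective Saranac 21 and effective Saranac 21, in 24 groups of 3 or 4 replicates. Whether plant or bacterium makes a class ineffective is not stated in the labels, and neither is the number of plants behind a library. P-values therefore measure only the spread between libraries. Each CO2 level had chambers of its own, so an effect of CO2 and one of the chamber cannot be told apart. The identifiers are not paired with names here, so the roles of the genes cannot be given, and the leaf origin was not checked against marker genes.

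As background, legumes such as alfalfa house rhizobia in root nodules, where the bacterial enzyme nitrogenase reduces atmospheric nitrogen to ammonium that the plant takes up in exchange for carbon. In ineffective symbioses nodules form but fix little or no nitrogen, and the plant depends on mineral nitrogen such as nitrate. Leaves are remote from this exchange and receive its products as amides and other nitrogen compounds in the xylem. Cultivated alfalfa is an outcrossing autopolyploid, so plants of a cultivar differ in alleles and in gene content.

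The scores of the members ran, in log2 units, from 0.931 to 2.96 (median 1.17), and 63 of the 80 reached 1. Over all scored identifiers the median was -0.21, and ineffective Agate was the lowest line in 2751 of them, or 17.2%. The line nearest to ineffective Agate was effective Agate for 34 members, effective Saranac for 28 and ineffective Saranac for 18. The highest line was ineffective Saranac for 37, effective Saranac for 25 and effective Agate for 18. At the edge of the choice, MsG0480022743.01 and MsG0680032290.01 were ranked 79 and 80 with scores of 0.936 and 0.931. The next identifiers down, MsG0180005401.01 and MsG0380017593.01, scored 0.926 and 0.925, so the number of 80 marks no gap in the scores.

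The level of the members, averaged over all 80 in each library, separated ineffective Agate from the other lines without overlap. The choice of the members fixes this direction and favours a gap without overlap, so the separation is a description only. The libraries are bulk leaf RNA, so fewer cells of a type and less RNA per cell cannot be told apart. This mean log2(CPM + 1) ran from 1.65 to 2.56 with a median of 2.14 in ineffective Agate. It ran from 3.07 to 4.07 (median 3.51) in effective Agate, from 3.53 to 4.4 (median 4.04) in ineffective Saranac and from 3.12 to 4.44 (median 3.53) in effective Saranac. Between 19 and 40 of the 80 members were under 1 CPM in a library of ineffective Agate, with a median of 28. The counts under 1 CPM were 2 to 14 (median 7) in effective Agate, 1 to 10 (median 7) in ineffective Saranac and 2 to 15 (median 9) in effective Saranac. Over all scored identifiers the share under 1 CPM was alike in the lines, with medians of 4.55% in ineffective Agate, 4.82% in effective Agate, 4.63% in ineffective Saranac and 5.24% in effective Saranac. Total counts were 15408689 to 24489884 per library in ineffective Agate and 13543807 to 25910031 over all grouped libraries.

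**Figure D1:**
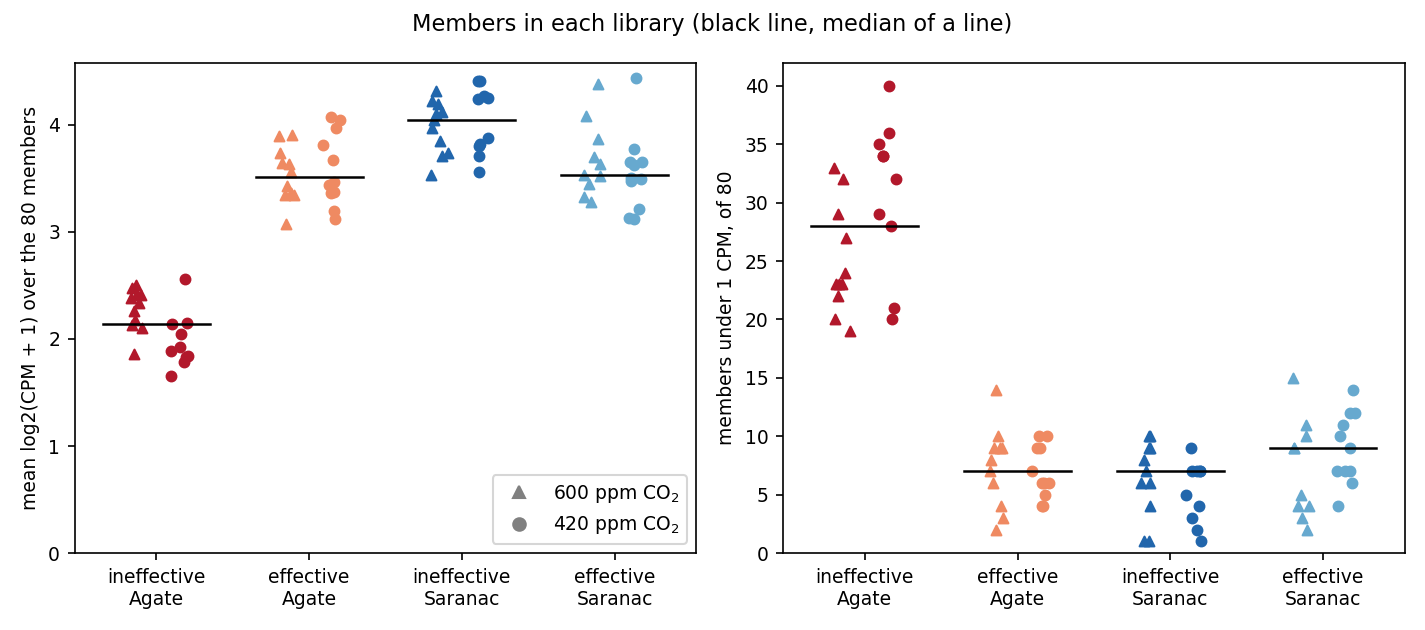
Left, mean log2(CPM + 1) of the 80 members in each library by line; right, the number of members under 1 CPM. Triangles are libraries at 600 ppm and circles those at 420 ppm CO2, and the black line is the median of a line. The ineffective Agate libraries lie between 1.65 and 2.56, under all others, a gap that the choice of the members favours.

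Single members were not separated in this way. No member had every ineffective Agate library below every library of effective Agate, nor did any other scored identifier (0% of 16039). A weaker condition, that every ineffective Agate library lay below the median of effective Agate, was met by 11 members and by 36 scored identifiers in all (0.224%). Against the median of the libraries of all 3 other lines it was met by 15 members, of 29 identifiers (0.181%). Counted over the 6 treatments, 29 members had their lowest group mean in ineffective Agate in all 6, and 50 were below effective Agate in all 6. The same held for 0.648% and 3.79% of all scored identifiers. In single treatments, ineffective Agate was the lowest line for 57 to 75 members, with the smallest number at 16 mM and 600 ppm and the largest at 16 mM and 420 ppm. The share of all scored identifiers lowest in ineffective Agate was 18.8% and 15.6% in these 2 treatments, and 14.8% to 28.6% over the 6. These counts follow from the choice of the members and are not evidence for it.

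Many members were nearly missing from some of the ineffective Agate libraries. In ineffective Agate 11 members reached 1 CPM in all 21 libraries and 25 reached it in under 50% of the libraries. In effective Agate 38 members reached 1 CPM in all 22 libraries and 2 in under 50%, in ineffective Saranac 43 and 0, and in effective Saranac 35 and 3. Over all scored identifiers these shares were 78.4% and 2.72% in ineffective Agate, 78.4% and 2.38% in effective Agate, 79.7% and 2.71% in ineffective Saranac and 78.8% and 2.68% in effective Saranac. A count of 0 occurred in at least 1 library of ineffective Agate for 35 members, against 14 in effective Agate, 12 in ineffective Saranac and 20 in effective Saranac. Of all scored identifiers, 5.61%, 5.31%, 4.74% and 5.36% had such a library in the same lines. The members also varied more between replicates than other identifiers did. Taking the highest scores can favour identifiers of wide spread, and its part in this was not tested. The median SD of log2(CPM + 1) within a group was 1.16 for the members and 0.505 for all scored identifiers in ineffective Agate. In effective Agate the medians were 1.08 and 0.447, in ineffective Saranac 1.2 and 0.455, and in effective Saranac 1.17 and 0.442. The spread of the members was thus about as wide in the other lines as in ineffective Agate.

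**Figure D2:**
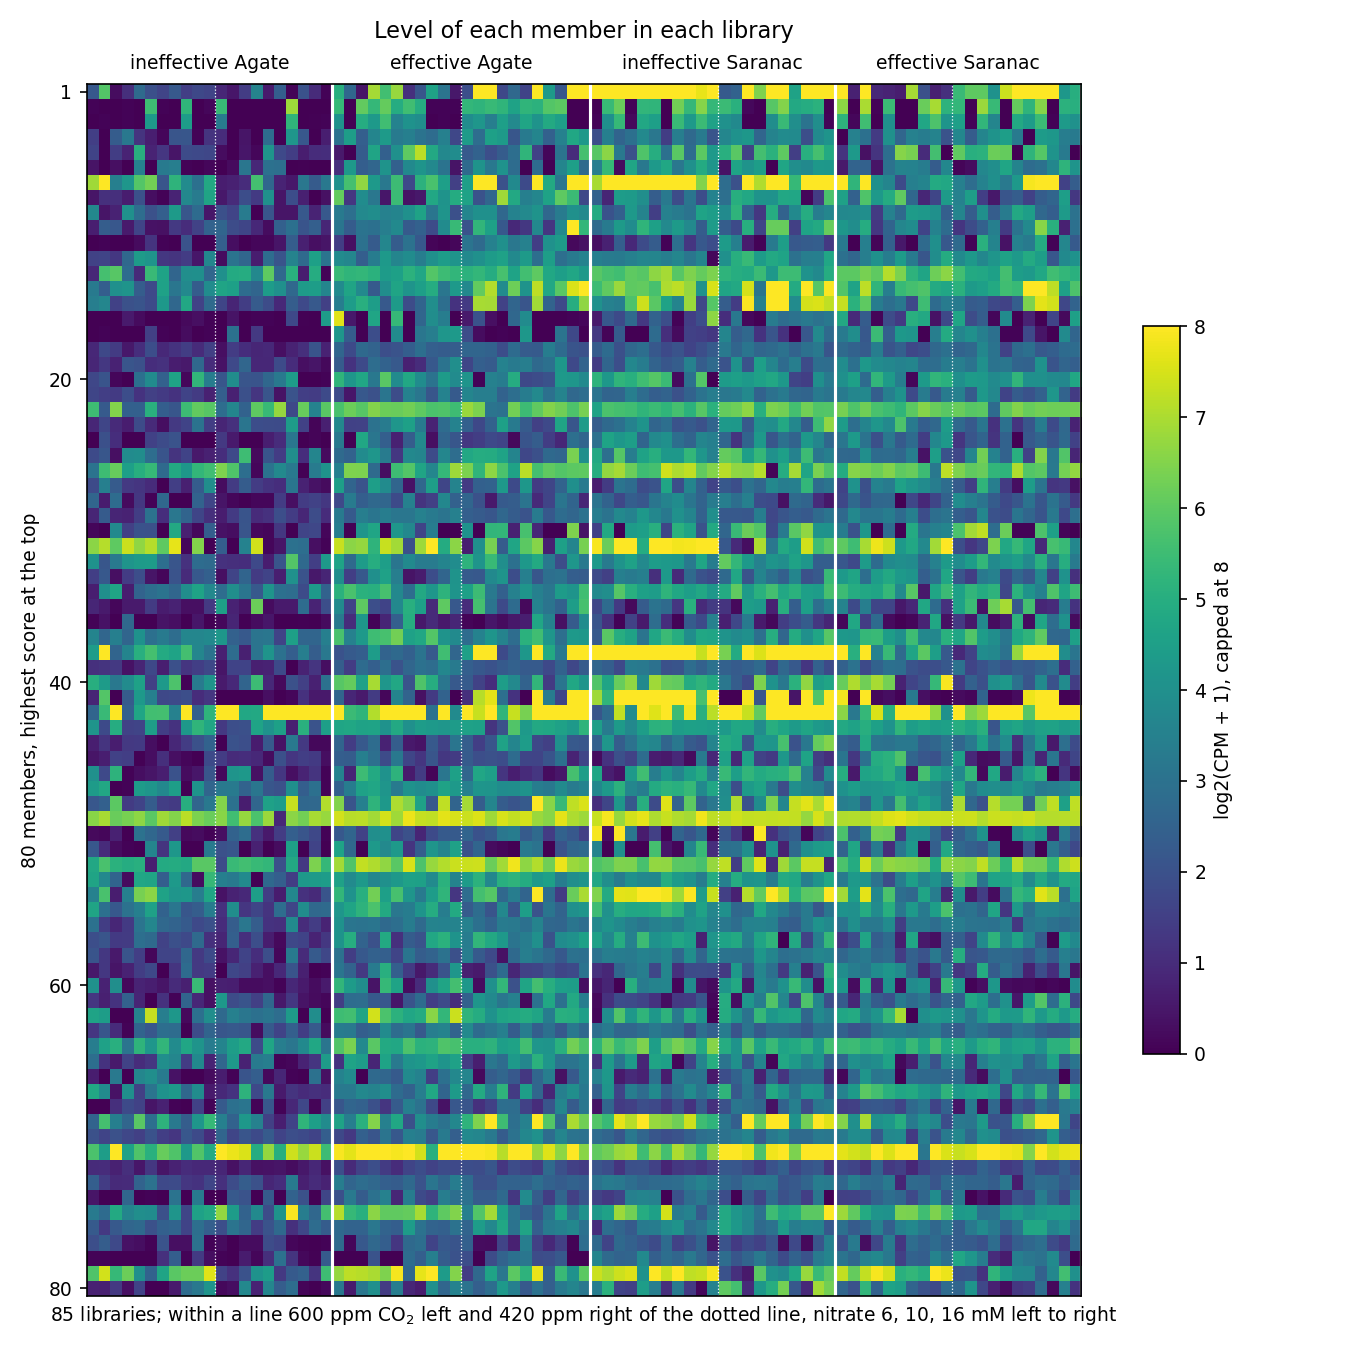
Level of the 80 members (rows, highest score at the top) in 85 libraries (columns), as log2(CPM + 1) capped at 8, by line. Within a line 600 ppm CO2 is left of the dotted line and 420 ppm right of it; rows near the top switch between dark and bright from library to library in every line, with most of the ineffective Agate libraries dark.

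The member with the highest score was MsG0480022056.01 (score 2.96). Its lowest, median and highest levels were 0.0460, 2.12 and 56.7 CPM in ineffective Agate and 0.349, 13.4 and 1543 CPM in effective Agate. In ineffective Saranac they were 3.83, 1281 and 4038 CPM, and in effective Saranac 0.572, 41.6 and 2996 CPM. The ranges of ineffective and effective Agate overlapped over most of the span of ineffective Agate, and no ineffective Agate library came near the highest one of effective Agate. Ineffective Saranac was high in most libraries, so the order of the lines was not one of fixation class. The other members among the 6 highest scores apart from the pair in the next paragraph were MsG0280007125.01, MsG0680032057.01 and MsG0280007697.01. MsG0280007125.01 (score 1.83) stood at 0, 1.02 and 17.6 CPM in ineffective Agate, with a count of 0 in 5 of 21 libraries. It stood at 2.25, 10.2 and 26.4 CPM in effective Agate, 1.76, 9.62 and 17.6 CPM in ineffective Saranac and 0, 9.41 and 21.2 CPM in effective Saranac. Its level was alike in the other 3 lines, and 2 effective Saranac libraries also lacked it. MsG0680032057.01 (score 1.82) had medians of 1.06 CPM in ineffective Agate, 5.54 CPM in effective Agate, 32.3 CPM in ineffective Saranac and 18.9 CPM in effective Saranac. For MsG0280007697.01 (score 1.76) the medians were 0.112, 6.72, 17.2 and 9.22 CPM in the same order of lines, with a count of 0 in 8 ineffective Agate and 2 effective Agate libraries and in none of Saranac. Both had ineffective Agate libraries as high as 32.2 and 10.4 CPM, within the range of effective Agate.

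MsG0280010547.01 and MsG0280010553.01 (scores 2.69 and 2.19), together with MsG0280010544.01 (score 1.46), were either present or missing as a set. MsG0280010547.01 was at 23.5 to 124 CPM in 49 libraries and at 0 to 0.118 CPM in the other 36, of which 26 had a count of 0. No library lay between. Where it was present, MsG0280010553.01 was at 7.24 to 53.3 CPM, and where it was missing at 0 to 0.140 CPM. All 3 identifiers reached 1 CPM together in 4 of 21 libraries of ineffective Agate, 16 of 22 of effective Agate, 14 of 21 of ineffective Saranac and 14 of 21 of effective Saranac. None of the 3 reached it in 17, 6, 5 and 7 libraries of these lines, and 2 libraries of ineffective Saranac were mixed. The set was therefore missing from some libraries of every line, and ineffective Agate differed in how many lacked it. The line mean of MsG0280010547.01 mixes libraries with and without it.

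The 4 ineffective Agate libraries with the set came from different treatments. MsG0280010547.01 stood at 36.3 CPM in replicate 1 at 16 mM and 600 ppm, at 44.3 CPM in replicate 2 at 10 mM and 600 ppm, at 112 CPM in replicate 1 at 16 mM and 420 ppm, and at 41.1 CPM in replicate 2 at 6 mM and 420 ppm. These levels were within the range of the libraries of the other lines that had the transcript. Among the 49 libraries with it the levels formed a lower band of 32 libraries at 23.5 to 45.3 CPM and an upper band of 17 at 57.3 to 124 CPM. In ineffective Agate 3 libraries were in the lower and 1 in the upper band, in effective Agate 12 and 4, in ineffective Saranac 10 and 5, and in effective Saranac 7 and 7. The bands were drawn after the values were seen, at 50 CPM. The ratio of MsG0280010553.01 to MsG0280010547.01 had a median of 0.459 and ran from 0.219 to 0.717 over the 49 libraries. After subtraction of the group means their levels had a Pearson r of 0.99 over 85 libraries. Deviations of MsG0280010544.01 had an r of 0.88 with those of MsG0280010547.01 and 0.89 with those of MsG0280010553.01. The 3 stand within 10 consecutive rows of the sorted identifiers, and no other identifier of these rows was scored.

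**Figure D3:**
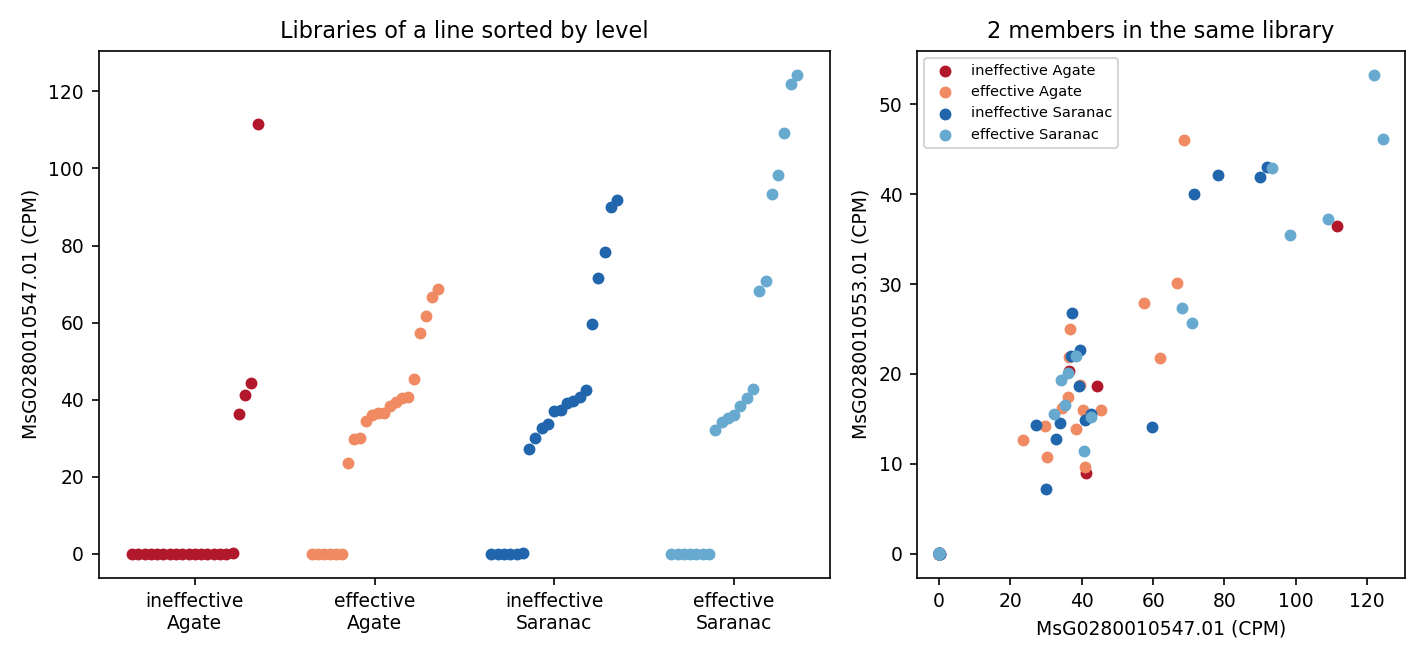
Left, CPM of MsG0280010547.01 in the libraries of each line, sorted by level; right, MsG0280010553.01 against MsG0280010547.01 in the same library, both in CPM. Points lie either at 0 to 0.118 CPM or at 23.5 CPM and above on the horizontal axis, and 4 of 21 ineffective Agate libraries are in the upper part.

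Some members stood below the median of effective Agate in every ineffective Agate library, though the ranges of the classes overlapped. MsG0480022088.01 (score 1.09) stood at 0.853, 94.3 and 143 CPM in ineffective Agate, 93.9, 155 and 218 CPM in effective Agate, 105, 154 and 234 CPM in ineffective Saranac and 131, 155 and 204 CPM in effective Saranac. The medians of the other 3 lines were nearly the same, and only 1 ineffective Agate library was under 1 CPM. The ineffective Agate median of 94.3 CPM was above the lowest effective Agate library, at 93.9 CPM. The neighbouring identifiers MsG0480022282.01 and MsG0480022283.01 were low together. MsG0480022282.01 stood at 1.01, 2.47 and 5.14 CPM in ineffective Agate, 1.5, 7.22 and 15.6 CPM in effective Agate, 2.81, 6.13 and 11.4 CPM in ineffective Saranac and 1.59, 8.64 and 16.6 CPM in effective Saranac. MsG0480022283.01 had medians of 1.77 CPM in ineffective Agate, 6.59 CPM in effective Agate, 6.90 CPM in ineffective Saranac and 8.77 CPM in effective Saranac. Their deviations from the group means had an r of 0.91 over 85 libraries. MsG0480022119.01 had 0.254, 1.05 and 3.19 CPM in ineffective Agate and 2.47, 4.28 and 9.55 CPM in effective Agate, so its ranges met over a short span. Its medians in ineffective and effective Saranac were 5.09 and 5.48 CPM. These 4 identifiers were picked for the evenness of their values, among the members whose ineffective Agate libraries all lay below the median of effective Agate.

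The member with the highest mean in effective Agate, on the CPM scale that is not corrected for gene length, was MsG0180000013.01. It averaged 254 ± 292 CPM in ineffective Agate, 555 ± 598 CPM in effective Agate, 577 ± 740 CPM in ineffective Saranac and 607 ± 765 CPM in effective Saranac (SD, n = 21, 22, 21 and 21). Its lowest, median and highest levels were 4.35, 48.3 and 951 CPM in ineffective Agate and 6.93, 395 and 2308 CPM in effective Agate. All lines thus spanned a wide range in this transcript, and the highest ineffective Agate library lay well inside the range of effective Agate.

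**Figure D4:**
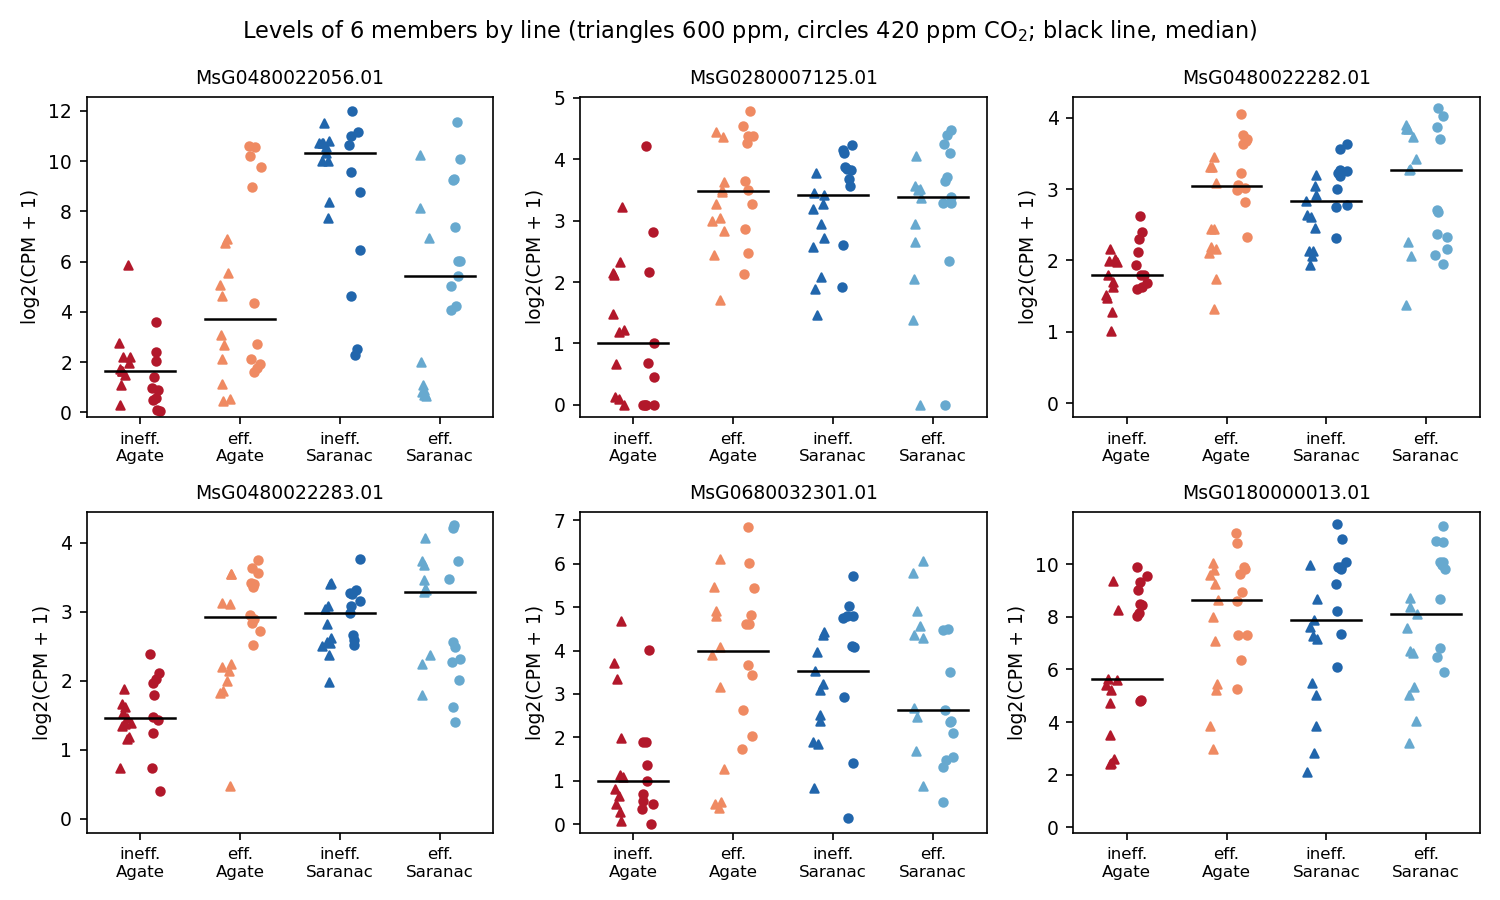
Levels of 6 members in each library as log2(CPM + 1), by line, with triangles for 600 ppm and circles for 420 ppm CO2 and the median of a line as a black line. MsG0480022282.01 and MsG0480022283.01 lie below the median of effective Agate in all ineffective Agate libraries, whereas in MsG0480022056.01 and MsG0180000013.01 every line spans several log2 units.

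The leading part of an identifier assigns it to a block, and whether the order within a block follows position in the genome is not stated in the labels. Of all scored identifiers 0.499% were members, and in the 9 blocks the share ran from 0.155% in MsG07 (3 of 1931) to 1.07% in MsG06 (11 of 1025). MsG00 had 4 of 412 (0.971%) and MsG04 17 of 2245 (0.757%), and the differences between blocks were not tested. Another member stood within 5 rows for 16 members, in 7 runs, and within 50 rows for 30 members, in 9 runs. In MsG06, 8 of the 16 scored identifiers in the 52 rows that end with MsG0680032308.01 were members, and 7 of the other 8 also scored above 0. This stretch was picked after the values were seen, as the run with the most members. From MsG0480022056.01 to MsG0480022159.01, 6 of 45 scored identifiers that were not members scored above 0. From MsG0480022258.01 to MsG0480022283.01, 3 of 7 did. Of all 291 scored identifiers within 5 rows of a member that were not members themselves, 68 scored above 0 (23.4%), beside 17.2% of all scored identifiers, and their median score was -0.18. The longest runs within 5 rows held 3 members each, MsG0680032272.01, MsG0680032274.01 and MsG0680032275.01 in the first and MsG0680032301.01, MsG0680032306.01 and MsG0680032308.01 in the second. Near-identical copies would share reads, and how the counting treated such reads is not stated in the labels, so the levels of neighbours that move together are uncertain as separate values.

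The 2 runs had medians of 0.906 to 1.80 CPM in ineffective Agate, and in effective Agate MsG0680032301.01 stood above the others. MsG0680032301.01 stood at 0, 0.992 and 24.6 CPM in ineffective Agate, 0.300, 15 and 115 CPM in effective Agate, 0.0959, 10.6 and 52 CPM in ineffective Saranac and 0.431, 5.16 and 65.6 CPM in effective Saranac. Its ineffective Agate median was the lowest of the 4, with overlapping ranges. The medians of MsG0680032272.01, MsG0680032274.01 and MsG0680032275.01 were 0.906, 1.73 and 1.80 CPM in ineffective Agate and 2.71, 6.62 and 4.68 CPM in effective Agate. Those of MsG0680032306.01 and MsG0680032308.01 were 1.5 and 1.01 CPM in ineffective Agate and 5.02 and 4.52 CPM in effective Agate. The mean log2(CPM + 1) of the 8 members of this stretch had a median of 1.13 in ineffective Agate (0.206 to 2.83), 2.71 in effective Agate (1.15 to 4.39), 3.08 in ineffective Saranac (1.85 to 5.21) and 3.09 in effective Saranac (1.18 to 4.48). The median r between these 8, on deviations from the group means, was 0.41, with a range of -0.07 to 0.77. In MsG04, a run of 5 members from MsG0480022056.01 to MsG0480022159.01 and a run of 4 from MsG0480022258.01 to MsG0480022283.01 had median r values of -0.00 and -0.05. Members that stood close in the list were thus not always alike between libraries.

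Most members did not vary together. Over the 3160 pairs the mean r of the deviations from the group means was 0.027 over 85 libraries, beside 0.053 for all pairs of scored identifiers. The libraries are shared by all pairs, so these values are a description. An r of at least 0.7 was reached by 31 pairs that involve 26 members, and 4 of these pairs were within 5 rows. The 10 pairs within 5 rows had a median r of 0.51 and the other pairs one of 0.01. Values for neighbouring pairs of all scored identifiers are not given here, so likeness of neighbours is not shown to be particular to the members. Linking pairs with an r of at least 0.7 gave a set of 9 members that includes the member of highest score, a set formed by MsG0280010544.01, MsG0280010547.01 and MsG0280010553.01, and 7 pairs.

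The set of 9 comprised MsG0480022056.01, MsG0580024096.01, MsG0280009968.01, MsG0380016152.01, MsG0580025689.01, MsG0480020270.01, MsG0280010631.01, MsG0480022651.01 and MsG0880042289.01, which come from 5 blocks of identifiers. It was found from the values and gets no test as a set. Its 36 pairs had a median r of 0.72 with a range of 0.43 to 0.86. Of all scored identifiers 20 had an r of at least 0.7 with the mean of the set, 11 of them not members, the most alike being MsG0380013534.01 (r = 0.91), which was named after its value was seen. The mean log2(CPM + 1) of the set in ineffective Agate was 2.02, 3.23 and 5.34 (lowest, median and highest, n = 11) at 600 ppm and 1.58, 1.87 and 2.90 (n = 10) at 420 ppm. In effective Agate it was 2.28, 3.56 and 4.66 (n = 11) at 600 ppm and 2.36, 3.86 and 8.77 (n = 11) at 420 ppm. Ineffective Saranac had 5.03, 7.80 and 8.77 (n = 11) at 600 ppm and 2.29, 7.70 and 9.62 (n = 10) at 420 ppm. Effective Saranac had 2.41, 3.45 and 7.87 (n = 10) at 600 ppm and 2.54, 3.13 and 9.49 (n = 11) at 420 ppm. The highest levels in effective plants were thus reached at 420 ppm in some libraries only, ineffective Saranac was high in most libraries, and no ineffective Agate library passed 5.34.

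The response to CO2 was tested within each line, over all 3 nitrate levels, with the quasi-likelihood test of edgeR on 24386 identifiers. All 80 members passed its filter on low counts, which was set over the libraries of every line, so a member low in ineffective Agate could pass through the others. With the libraries of ineffective Agate alone, 78 of 80 passed it for CO2 and 76 for nitrate. An identifier is called changed where its p-value is under 0.05 after Benjamini-Hochberg adjustment over every identifier tested. In ineffective Agate 6 members rose at 600 ppm and 4 fell (7.5% and 5.00%), beside 7.13% and 10.3% of all identifiers tested. In effective Agate 4 rose and 11 fell (5.00% and 13.8%), beside 7.93% and 7.19%. In ineffective Saranac 4 rose and 14 fell (5.00% and 17.5%), beside 12.6% in each direction. In effective Saranac 4 rose and 7 fell (5.00% and 8.75%), beside 9.67% and 8.98%. The shares in ineffective Agate and effective Saranac were near or under those of all identifiers. Those that fell in effective Agate and ineffective Saranac were above them, a difference that was not tested and that depended on the setting. In limma-trend 5 of 80 members fell in effective Agate, beside 1561 of 24386 identifiers. Without replicate 3, 5 of 80 fell in ineffective Saranac, beside 2080 of 24663, and the share was not above that of all in either case. With DESeq2 it was above, with 13 of 80 in effective Agate (2073 of 23824 of all) and 16 of 80 in ineffective Saranac (3393 of 24556). Of the 11 that fell in effective Agate, 6 belong to the set of 9 that vary together. The median log2 fold change of the 80 members was -0.005 in ineffective Agate, -0.25 in effective Agate, -0.38 in ineffective Saranac and -0.17 in effective Saranac. Over all identifiers tested it was -0.007, 0.02, 0.003 and 0.02 in the same lines. In all, 35 members were called in at least 1 line (43.8%, beside 42.5% of all identifiers tested), and 13 in more than 1 (16.3%, beside 20.6%). Calls in opposite directions were made for 3 members (3.75%, beside 0.607%), a difference that was not tested. These counts changed when libraries were left out, and so did the calls over all identifiers tested. Without the libraries of replicate 2 the count of 10 in ineffective Agate became 2, and the share of all identifiers called became 9.68%, against 17.4% with them. The count of 15 in effective Agate became 7 without replicate 1, with 4.35% of all identifiers called, against 15.1%. In ineffective Saranac the count of 18 became 8 without replicate 3, with 16.5% of all called, against 25.2%. In effective Saranac the count of 11 became 4 without replicate 2 or replicate 3, with 11.3% and 9.48% of all called, against 18.7%. Limma-trend called 8 members in effective Agate (13.5% of all identifiers), and 5 when replicate 1 at 16 mM and 600 ppm of that line was left out (9.81% of all). In effective Saranac it called 6 (17.8% of all), and 3 without replicate 2 at 16 mM and 600 ppm (14.2% of all) or without replicate 4 at 6 mM and 420 ppm (14% of all) of that line.

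**Figure D5:**
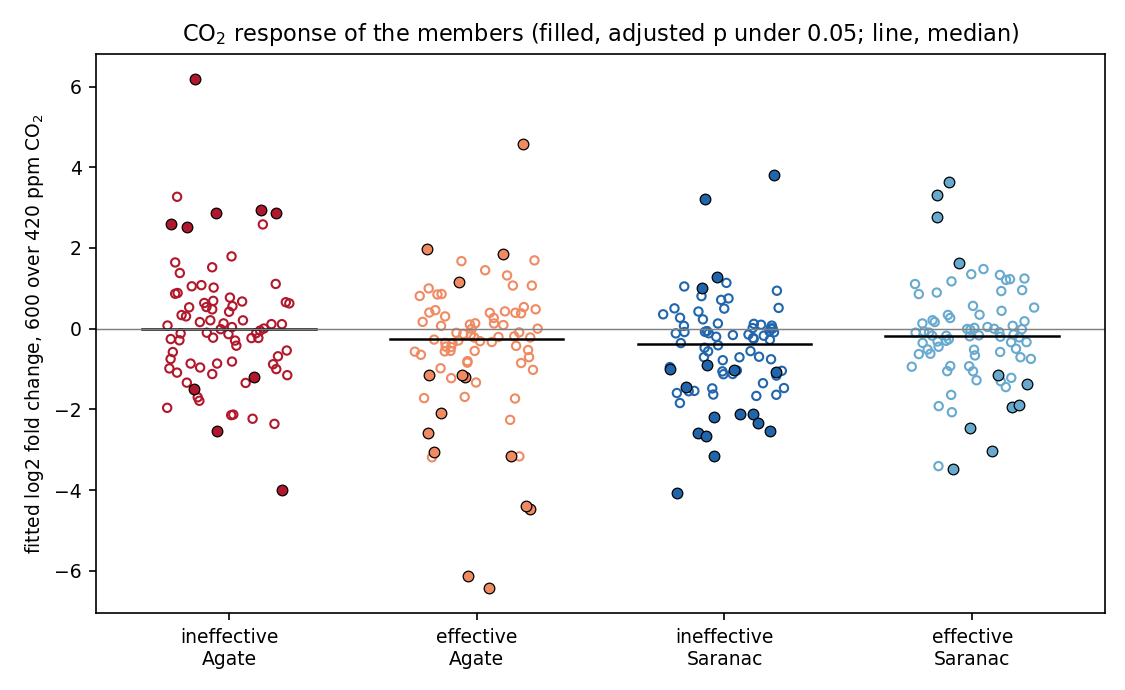
Fitted log2 fold change of each of the 80 members at 600 over 420 ppm CO2 in each line; filled points have an adjusted p under 0.05 in edgeR, and the black line is the median of the 80. The medians are -0.005, -0.25, -0.38 and -0.17 from left to right, and called members lie on both sides of 0 in every line.

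MsG0480022743.01, the member ranked 79, was called higher at 600 ppm in each of the 4 lines, least stably in effective Agate. In ineffective Agate it stood at 4.69, 60.4 and 197 CPM (lowest, median and highest, n = 11) at 600 ppm and 1.21, 3.41 and 45 CPM (n = 10) at 420 ppm, a log2 change of 2.86 ± 0.61 (SE, adjusted p = 0.00047, edgeR). The ranges overlapped, and the group mean was higher at 600 ppm at all 3 nitrate levels. In effective Agate its medians were 126 CPM at 600 ppm and 23.9 CPM at 420 ppm, with a log2 change of 1.85 ± 0.56 (SE, adjusted p = 0.016, edgeR). This call was lost under 3 of 11 alternatives, with an adjusted p of up to 0.288, and in limma-trend, where the adjusted p was 0.035, 8 single libraries ended it when left out. In ineffective Saranac the medians were 164 and 20.7 CPM and in effective Saranac 153 and 12.3 CPM, with log2 fold changes of 3.21 ± 0.62 and 3.63 ± 0.61 (SE, adjusted p = 6.5e-05 and 1.9e-05, edgeR). In ineffective Agate and in both Saranac lines the call held under all 11 alternative settings tried. At 420 ppm its ineffective Agate median of 3.41 CPM was the lowest of the 4 lines, and at 600 ppm that of 60.4 CPM was too.

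The other members named in ineffective Agate for the lowest adjusted p in each direction in edgeR responded less evenly. MsG0180003083.01 stood at 0.0539, 0.312 and 6.88 CPM at 600 ppm and 0, 0.148 and 2.59 CPM at 420 ppm. Its log2 fold change was 2.60 ± 0.76 (SE, adjusted p = 0.012, edgeR), and 3 of 11 alternatives ended the call, with an adjusted p of up to 0.871. MsG0880043087.01 stood at 0.102, 0.499 and 1.62 CPM at 600 ppm and 0.200, 0.720 and 72.8 CPM at 420 ppm. The medians were close, and the fitted change of -4.00 ± 1.00 (SE, adjusted p = 0.0028, edgeR) came with high values in some libraries at 420 ppm. It was lost under 3 alternatives, with an adjusted p of up to 0.256. MsG0180000013.01 stood at 4.35, 35.9 and 652 CPM at 600 ppm and 27, 352 and 951 CPM at 420 ppm. It fell by 2.54 ± 0.83 on the log2 scale (SE, adjusted p = 0.025, edgeR), lower at 600 ppm at all 3 nitrate levels, and 3 alternatives ended this call, with an adjusted p of up to 0.261.

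In effective Agate the largest fall among the named members was that of MsG0480020270.01. It stood at 3.04, 4.84 and 45.5 CPM (n = 11) at 600 ppm and 2.45, 27.8 and 2405 CPM (n = 11) at 420 ppm, a log2 change of -6.42 ± 1.13 (SE, adjusted p = 6.9e-05, edgeR), which held under all 11 alternatives. Several libraries at 420 ppm were far above the rest, while the lowest ones were at the level of 600 ppm. MsG0380016152.01 stood at 3.82, 16.5 and 30.3 CPM at 600 ppm and 12.4, 66.4 and 323 CPM at 420 ppm, a log2 change of -2.59 ± 0.60 (SE, adjusted p = 0.0016, edgeR), and was lost without the libraries of replicate 3 (adjusted p = 0.072). Among those that rose, MsG0380012044.01 stood at 31.9, 65.8 and 137 CPM at 600 ppm and 3.12, 9.93 and 118 CPM at 420 ppm. Its log2 fold change was 1.97 ± 0.53 (SE, adjusted p = 0.0065, edgeR), and without the libraries of replicate 4 the adjusted p was 0.069. MsG0580029467.01 had medians of 5.12 CPM at 600 ppm and 0.0937 CPM at 420 ppm and 4 libraries with a count of 0 at either CO2 level. Its fitted change of 4.58 ± 1.35 (SE, adjusted p = 0.014, edgeR) was lost under 4 alternatives, with an adjusted p of up to 0.27. The evenly low pair also fell here: MsG0480022282.01 by 1.2 ± 0.29 and MsG0480022283.01 by 1.15 ± 0.34 on the log2 scale (SE, adjusted p = 0.0025 and 0.013, edgeR). The call of MsG0480022282.01 held under all 11 alternatives, and that of MsG0480022283.01 was lost without the libraries of replicate 1 or of replicate 2 (adjusted p of up to 0.133). MsG0480022282.01 was also called lower at 600 ppm in ineffective Saranac, where limma-trend gave an adjusted p of 0.0067.

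In ineffective Saranac MsG0780036627.01 stood at 0.0941, 1.5 and 3.33 CPM (n = 11) at 600 ppm and 0.217, 11.9 and 56.3 CPM (n = 10) at 420 ppm, a log2 change of -4.08 ± 0.76 (SE, adjusted p = 3.5e-05, edgeR). MsG0180000832.01 stood at 39.4, 77 and 127 CPM at 600 ppm and 52, 315 and 499 CPM at 420 ppm, and fell by 2.12 ± 0.42 (SE, adjusted p = 8.9e-05, edgeR). MsG0380016655.01 stood at 30.2, 316 and 711 CPM at 600 ppm and 0.237, 24.4 and 172 CPM at 420 ppm, a rise by a log2 change of 3.80 ± 0.96 (SE, adjusted p = 0.0020, edgeR). All 3 calls held under the 11 alternatives. MsG0180000832.01 was also called lower in ineffective Agate. Limma-trend made that call too (adjusted p = 0.0074), and it held without each single library (adjusted p of up to 0.024). MsG0380016655.01 was also called higher in ineffective Agate and effective Saranac, and MsG0780036627.01 lower in both effective lines. In those lines limma-trend called only MsG0380016655.01 in ineffective Agate, and 1 library ended that call when left out. In effective Saranac MsG0180001124.01 stood at 0.699, 72.5 and 242 CPM (n = 10) at 600 ppm and 1.64, 4.62 and 18.4 CPM (n = 11) at 420 ppm, a log2 change of 3.31 ± 0.77 (SE, adjusted p = 0.0012, edgeR). The call held under the 11 alternatives, but in limma-trend, where the change was 2.35 and the adjusted p 0.033, 9 single libraries ended it when left out, with an adjusted p of up to 0.128. MsG0180000013.01 fell there by 3.03 ± 0.87 (SE, adjusted p = 0.0087, edgeR), with medians of 101 CPM at 600 ppm and 991 CPM at 420 ppm, and was lost without the libraries of replicate 2 (adjusted p = 0.15). MsG0480022056.01 had medians of 0.996 CPM at 600 ppm and 64 CPM at 420 ppm. Its fall of 3.49 ± 1.24 (SE, adjusted p = 0.038, edgeR) was lost under 5 alternatives, and in limma-trend without replicate 3 of effective Saranac at 6 mM and 600 ppm (adjusted p = 0.068).

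Whether the response to CO2 differed between the fixation classes of Agate was tested as an interaction, the log2 change in ineffective Agate minus that in effective Agate. It was higher in ineffective Agate for 4 members and lower for 1 (5.00% and 1.25%), beside 0.303% and 0.689% of all identifiers tested. All 4 with the higher change belong to the set of 9, whose members rise and fall together between libraries, so they are not separate observations. The members also had a larger spread within groups than other identifiers, and its part in these counts was not tested. MsG0480020270.01 had a difference of 9.0 ± 1.46 (SE, adjusted p = 0.0014, edgeR). In ineffective Agate it stood at 5.02, 23.7 and 343 CPM at 600 ppm and 0.612, 6.53 and 16.6 CPM at 420 ppm, against the opposite order of CO2 levels in effective Agate given above. MsG0580024096.01 differed by 7.33 ± 1.46 (SE, adjusted p = 0.0064, edgeR). Its levels were 3.27, 27.2 and 287 CPM at 600 ppm and 0.427, 2.45 and 47.8 CPM at 420 ppm in ineffective Agate, and 1.83, 21.8 and 100 CPM at 600 ppm and 2.50, 28.2 and 3893 CPM at 420 ppm in effective Agate. The medians of effective Agate were close, and its group means at 420 ppm were set by a few libraries. For both, the group mean was higher at 600 ppm at all 3 nitrate levels in ineffective Agate and lower at all 3 in effective Agate.

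MsG0280010631.01 had the same pattern with a fitted difference of 12.3 ± 2.52 (SE, adjusted p = 0.0069, edgeR). It stood at 0, 2.48 and 57.2 CPM at 600 ppm and 0, 0.0534 and 1.23 CPM at 420 ppm in ineffective Agate, where 5 of 10 libraries at 420 ppm had a count of 0, so the size of the fitted change is uncertain. In effective Agate it stood at 0, 1.56 and 11.3 CPM at 600 ppm and 0, 9.35 and 732 CPM at 420 ppm. MsG0480022651.01 had a difference of 4.6 ± 1.22 (SE, adjusted p = 0.046, edgeR), with medians of 17.7 and 1.06 CPM at 600 and 420 ppm in ineffective Agate and of 21.9 and 9.60 CPM in effective Agate. Its medians thus moved the same way in both classes, and 8 of 11 alternatives ended the call. The 1 member with a lower change in ineffective Agate was MsG0380012044.01, with a difference of -3.47 ± 0.75 (SE, adjusted p = 0.010, edgeR). It stood at 2.17, 13.8 and 27.8 CPM at 600 ppm and 2.64, 14.6 and 249 CPM at 420 ppm in ineffective Agate, beside the rise in effective Agate. Of these 5, MsG0480020270.01 was called under all 11 alternatives, though in limma-trend its adjusted p was 0.049 and 48 of the 85 libraries ended that call when each was left out in turn. The other 4 were not called in limma-trend. The count of 5, beside 0.992% of all identifiers, became 1 without the libraries of replicate 2, where 0.0525% of all were called, and 12 with DESeq2, which called 3.56% of all.

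No member was called for nitrate. Between 6 and 16 mM KNO3, edgeR called 0 of 80 in ineffective Agate, 0 in effective Agate and 0 for the difference between them, and 0% of all identifiers tested in each case. At an unadjusted p under 0.05 there were 16, 6 and 10 of the 80 members, beside 8.35%, 7.04% and 7.04% of all identifiers tested. DESeq2 called 5, 0 and 3 members (6.25%, 0% and 3.75%), beside 0.777%, 0.435% and 0.603% of all, and limma-trend 0, 0 and 0. Whether these shares differ from those of all identifiers was not tested. Averaged over the members, ineffective Agate at 600 ppm stood at 2.18 ± 0.24 at 6 mM, 2.38 ± 0.17 at 10 mM and 2.28 ± 0.15 at 16 mM as mean log2(CPM + 1) (SD, n = 4, 4 and 3). At 420 ppm it stood at 2.04 ± 0.11, 1.89 ± 0.24 and 2.00 ± 0.37 (SD, n = 3, 3 and 4). In effective Agate the group means lay between 3.45 and 3.65. The gap between the classes in this average follows from the choice of the members and is no evidence for it.

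The members were chosen on all 85 grouped libraries. To read a choice on libraries it did not use, 2 further lists of 80 were chosen by the same score at a single CO2 level. The 80 identifiers of highest score at 420 ppm alone shared 48 with the 80 members, and those at 600 ppm alone shared 39. Of the 80 chosen at 420 ppm, 77 were scored at 600 ppm, and 55 of these had a score above 0 there, with a median of 0.45, beside 14.8% of all identifiers scored at 600 ppm. Of the 80 chosen at 600 ppm, 76 were scored at 420 ppm, and 53 had a score above 0 there, with a median of 0.49, beside 22.8% of all. Most identifiers of each list were thus lowest in ineffective Agate at the other CO2 level too. This describes these 2 lists and is no test of the 80 members, which were chosen on all of these libraries.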

How the data were processed

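The deposited table holds raw counts per gene identifier. The counting tool of the authors was featureCounts, as the submitters' processing notes name it. No aligner, genome build, annotation, strand setting or tool version is given in the sources used here. Libraries were made from polyadenylated RNA with a stranded kit, per the labels' protocols. The reference table of gene names matched 0 of the 49095 identifiers. Of 86 libraries, 85 were grouped by their labels, and 1 with contradicting labels entered no comparison. In ineffective Saranac, replicate 3 at 6 mM and 420 ppm has a sample number out of order and was kept as labelled. Total counts of 13543807 to 25910031 set the precision. Levels are CPM or log2(CPM + 1).

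Contrasts were tested with edgeR 4.0.16 (R 4.3.3), quasi-likelihood F-test, TMM scaling, filterByExpr (24386 identifiers kept), 1 coefficient for each of 24 groups and Benjamini-Hochberg adjustment. SEs of log2 fold changes were obtained by dividing the change by the root of F. The 11 alternatives included DESeq2 1.42.0, a replicate block and each replicate number left out. Limma-trend (limma 3.58.1) and leaving out each library in turn were added after seeing the data. The code was tested on simulated data, where it called 33.3% of 2-fold and 65.6% of 4-fold changes for CO2 in ineffective Agate. The changed identifiers were drawn from all that passed the filter. The members varied more between replicates than other identifiers, so these rates may be too high for them. A member that was not called is thus not shown to be unchanged. Named members are the 6 of highest score, the one of highest mean in effective Agate, those at the edge of the choice, up to 2 called in each direction per contrast and those of the longest runs. Others were chosen after their values were seen. The members and lists were chosen with earlier results of these data known.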

Additional observations from a re-analysis of the deposited data

Results flagged for a closer look

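In ineffective Agate at 16 mM and 420 ppm, replicate 1 had a mean log2(CPM + 1) over the 80 members of 2.56, and the other 3 replicates stood at 1.78 to 1.84. It stood out by the gap to its neighbour relative to the range of the group, a check made in 13 groups of 4, and chance marks about 1 in 20 groups in this way. This library is also 1 of the 4 of ineffective Agate with MsG0280010547.01. At 2.56 it remained below every library of the other lines, which the choice of the members favours.

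The interaction test of edgeR called a different response to CO2 in ineffective and effective Agate for 5 members, beside 0.992% of all identifiers tested. The log2 change of ineffective minus effective Agate was 12.3 for MsG0280010631.01, 9.0 for MsG0480020270.01, 7.33 for MsG0580024096.01, 4.6 for MsG0480022651.01 and -3.47 for MsG0380012044.01. Among them, MsG0480020270.01 alone was also called in limma-trend. There 0 of the 5 calls held when each library was left out in turn, beside 3.31% of the calls of all identifiers. The 4 members with a higher change in ineffective Agate belong to the set of 9 that vary together, so they are not separate observations.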

How the results depend on the processing

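Of 55 counts of members called for CO2 under other settings, 35 stayed within 1.5 times of those reported and 20 did not. For nitrate, 31 of 33 counts were 0, as in the reported test, which says nothing about stability. Each count is followed by the share of all identifiers called under the same setting. For CO2 in ineffective Agate, 10 members were called (17.4%), 18 with DESeq2 (21.5%) and 2 to 8 without each replicate number in turn (6.43% to 18.5%). For effective Agate the count of 15 (15.1%) was 8 in limma-trend (13.5%) and 7 to 10 without a replicate number (4.35% to 13%). For ineffective Saranac the count of 18 (25.2%) was 8 to 16 without one (15.6% to 21.2%). For effective Saranac the count of 11 (18.7%) was 5 without the filter on low counts (10.1%), 6 in limma-trend (17.8%) and 4 to 7 without a replicate number (9.48% to 16.7%). For the difference in CO2 response between the fixation classes of Agate the count of 5 (0.992%) was 12 with DESeq2 (3.56%), 3 with the libraries of the contrast alone (0.267%), 1 in limma-trend (0.193%) and 1 to 3 without a replicate number (0.0525% to 1.53%). DESeq2 called 5 members for nitrate in ineffective Agate and 3 for its difference between the classes, beside 0.777% and 0.603% of all identifiers, where edgeR called 0. The causes were not tested. Of 264 values of named calls under other settings, 218 kept their call, 46 lost it and 0 changed direction.

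Of the 80 members, 48 were chosen again from the 420 ppm libraries alone and 39 from the 600 ppm libraries alone. Under the other 10 settings of the choice, 59 to 79 were chosen again, with the fewest without replicate 1. Replicate numbers did not pair the libraries: deviations of same-numbered libraries had a mean correlation of -0.0025, and 13 of 85 libraries correlated best with their own number. With the replicate number as a block the counts were 10, 14, 18 and 10 for CO2 in ineffective Agate, effective Agate, ineffective Saranac and effective Saranac (16.9%, 14.3%, 24.7% and 17.9% of all identifiers), 4 for the difference in Agate (0.660%) and 0 for the nitrate contrasts (0%). Without ineffective Saranac replicate 3 at 6 mM and 420 ppm, whose sample number is out of order, 17 members were called for CO2 in that line (21.9% of all).

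In edgeR, 59 calls of a member in a contrast were made. Limma-trend made 38 of them (64.4%, beside 86.4% of the calls of all identifiers), and 20 held when each library was left out in turn (33.9%, beside 57.4%). This difference was not tested. Levels under 1 CPM rest on few counts in a library, so their differences are uncertain at this depth.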

Other observations

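The library that the labels assign to both fixation classes, and that entered no group, had a total count of 19724147. Its mean log2(CPM + 1) over the 80 members was 3.18, and 9 members were under 1 CPM. MsG0280010547.01 stood at 34.9 CPM in it, MsG0280010553.01 at 14.6 CPM, MsG0280010544.01 at 11.9 CPM and MsG0480022056.01 at 9.63 CPM.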
